A study of Mus musculus with 18 samples.

Results

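Exome calls were compared between leukemias of 2 mouse number series. Of 17 leukemias, 9 came from mice whose number ends in NN (M53 to M61) and 8 from mice whose number has no such ending (M18 to M24 and M31, named plain here). The labels do not say what NN stands for, and the members were chosen by this ending alone. Every leukemia carried both the NP23 and the NHD13 transgene on the C57Bl6-NIH background and was labelled thymic AML, so the stated genotype and strain were the same in both series. Each came from its own mouse. The NN series held 5 thymus and 4 bone marrow samples, and the plain series 6 and 2. Genomic DNA was captured for coding exons, and each leukemia was called against tail DNA of 1 wild-type mouse, which is the common normal and not a group. Inherited variants that this mouse lacked are therefore listed together with acquired ones. The labels give no colony, date or run for the series, so a difference of colony, handling or sequencing and a difference of biology cannot be told apart here.

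NP23 joins NUP98, a nucleoporin, to PHF23, and NHD13 joins it to HOXD13. NUP98 fusions are found in human acute leukemias, where they keep genes of the HOXA cluster and Meis1 active, and they usually need further mutations before leukemia appears. Signalling genes such as those of the RAS pathway and regulators of chromatin are common partners. Mice of an inbred colony that descend from the same founders also share inherited variants, and an exome compared with an unrelated normal lists these beside the mutations of the leukemia.

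Some libraries stood apart, and most main counts and shares are also given without M31, without M18, M19 and M22, or without all of these. M31 had 885 calls, 607 of them marked as known variants in the deposited database column. Of these, 359 lay on chromosome 1 and 211 on chromosome 19, at median allele fractions of 0.31 and 0.319. M18, M19 and M22 had 197 to 223 private calls with an allele fraction under 0.10, more than any other leukemia. In the NN series M59 stood apart with 51 such calls and with its C>A share, and M57 with 22 marked calls, 17 of them on chromosome 6. A call is named private when its site was listed in 1 leukemia and shared when it was listed in 2 or more. Allele fraction is the caller's estimate of the share of DNA that carries the variant. Depth was taken as the median of each leukemia at sites listed in at least 10 leukemias. These values averaged 72.3 ± 22 reads (SD, n = 9) in the NN series and 72.8 ± 31.8 reads (SD, n = 8) in the plain series (exact permutation p = 0.976, two-sided). Their medians were 67 reads (NN) and 60.75 reads (plain). The deepest leukemias were M18 with 130 reads and M59 with 121.5, and the shallowest M21 with 38.

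The first question was whether the series differ in how much was called. NN leukemias had 50 to 96 calls (median 62) and plain leukemias 67 to 885 (median 195.5). The ranges overlapped: M20 with 67 and M21 with 80 calls lay among the NN values. The means were 66 ± 14.7 calls (SD, n = 9) against 257 ± 268 calls (SD, n = 8), a difference of -191 calls for NN minus plain (adjusted p = 0.00118, exact two-sided permutation test over 24310 assignments with Benjamini-Hochberg adjustment over 8 counts). Of these 8 counts of calls, 6 passed (75%). The 8 counts overlap, since private calls, for example, are part of all calls. Unmarked calls averaged 59.7 ± 13.9 (SD, n = 9) and 179 ± 93.3 (SD, n = 8). Their difference of -119 calls passed (adjusted p = 0.00107, exact permutation test). Without M31 the difference in all calls was -102, and with M18, M19 and M22 left out too it was -30.5 (adjusted p = 0.0336, exact permutation test); both passed.

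The difference lay in private calls. NN leukemias had 12 to 59 private calls (median 24) and plain leukemias 41 to 851 (median 151.5), with means of 25.3 ± 14.9 (SD, n = 9) and 220 ± 266 (SD, n = 8) (difference -195, adjusted p = 0.000987, exact permutation test). The difference was -105 without M31 and -41.2 without M18, M19, M22 and M31 (adjusted p = 0.0291, exact permutation test), and both passed. With marked calls left out the private difference was -121 and passed (adjusted p = 0.000633, exact permutation test). Shared calls numbered 34 to 49 per NN leukemia and 22 to 49 per plain leukemia. Their means, 40.7 ± 5.15 (SD, n = 9) and 37.1 ± 10.5 (SD, n = 8), differed by 3.54 calls, within the spread between leukemias (adjusted p = 0.445, exact permutation test). With M18, M19 and M22 left out, the shared difference was 9.87 calls and passed (adjusted p = 0.0171, exact permutation test). Marked calls averaged 6.33 ± 6.25 (SD, n = 9) and 78.5 ± 214 (SD, n = 8), did not pass (adjusted p = 0.445, exact permutation test), and had medians of 5 and 2.5.

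**Figure D1:**
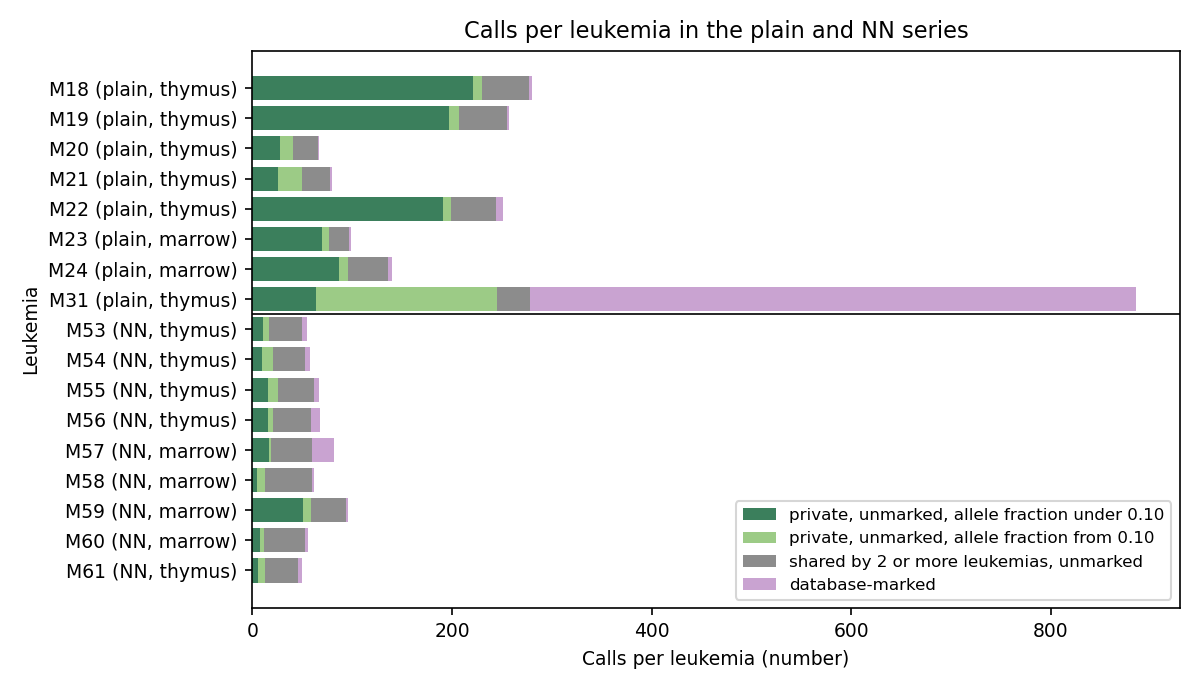
Number of calls per leukemia (x axis) for the 8 plain leukemias above the line and the 9 NN leukemias below it, 1 bar each, stacked by kind of call. The dark green part, private unmarked calls with an allele fraction under 0.10, runs from 26 to 221 in the plain series and from 5 to 51 in the NN series, while the grey part, shared unmarked calls, runs from 20 to 48 and from 32 to 47.

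Most of the private calls had low allele fractions. Under 0.10, private calls numbered 223 in M18, 198 in M19, 197 in M22, 89 in M24, 88 in M31, 70 in M23, 28 in M20 and 26 in M21. In the NN series M59 had 51, M57 34, M56 19, M55 16, M53 13, M54 12, M60 8, M61 6 and M58 5. All plain leukemias lay above 7 of the 9 NN leukemias, and only M57 and M59 reached into the plain range. The means were 115 ± 79.5 (SD, n = 8) in the plain series and 18.2 ± 15.1 (SD, n = 9) in the NN series (difference -96.7, adjusted p = 0.00107, exact permutation test). Leaving out M18, M19 and M22, the highest of all, gave -42, which passed (adjusted p = 0.013, exact permutation test). These counts include marked calls. Without marked calls M57 had 17 and M31 64. The lowest plain count was then 26 in M21, and only M59 with 51 reached into the plain range. The difference was then -94.9 and passed (adjusted p = 0.000633, exact permutation test). In the unmarked calls of this kind the median alternative read count was 4 in both series, at median depths of 124.5 (NN) and 133 reads (plain).

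From 0.10 upward the series were closer. NN leukemias had 3 to 12 such private calls (median 8), and plain leukemias other than M31 had 7 to 24, with 763 in M31. Of the 763 in M31, 181 were unmarked. The difference of -98.3 calls passed (adjusted p = 0.0216, exact permutation test), but without M31 it was -4.32 calls (adjusted p = 0.073, exact permutation test). It was also lost when M53, M56, M57, M58, M59, M60 or M61 was left out, with differences of -98.4 to -97.8. With marked calls left out the difference was -25.8 calls and passed (adjusted p = 0.0122, exact permutation test).

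**Figure D2:**
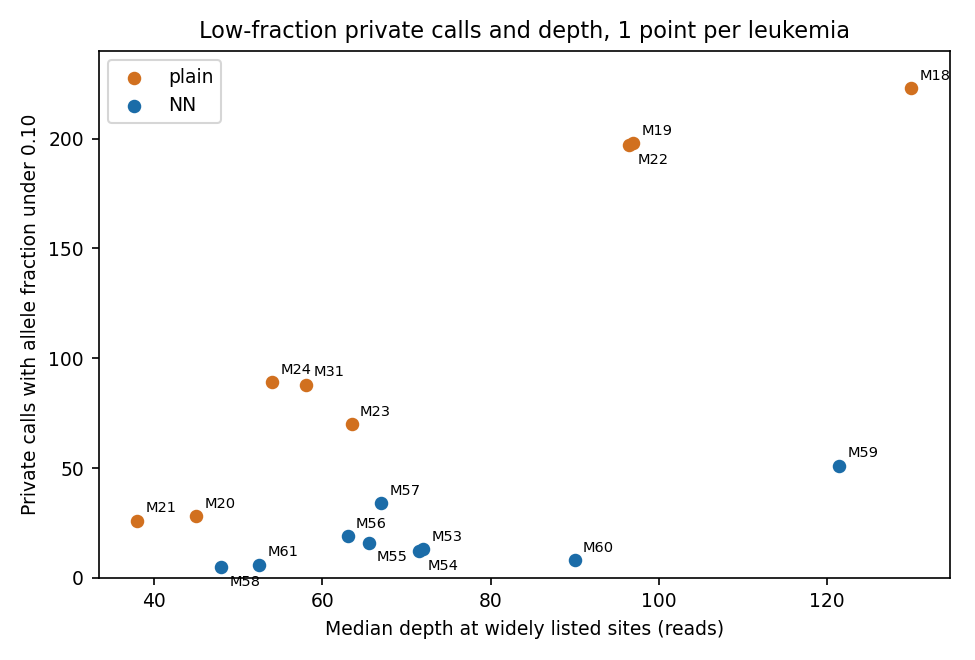
Private calls with an allele fraction under 0.10 (y axis, number) against the median depth at widely listed sites (x axis, reads), 1 point per leukemia, plain in orange and NN in blue. M59 at 121.5 reads has 51 calls and M18 at 130 reads has 223, while M20 and M21, the shallowest leukemias at 45 and 38 reads, have 28 and 26.

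Depth moved with these counts within the plain series. The deepest plain leukemias, M18, M19 and M22 (130, 97 and 96.5 reads), had the most low-fraction private calls, and the shallowest, M20 and M21, the fewest. In the NN series the deepest leukemia, M59 (121.5 reads), had the most such calls, 51. The shallowest, M58 (48 reads), had the fewest, 5, but M60 had 90 reads and only 8. The part of depth in the difference between the series was not tested. Within thymus the difference in low-fraction private calls, NN minus plain, was -113 and within bone marrow -55, where only 2 plain leukemias were available. The difference between these tissue contrasts did not pass (exact permutation p = 0.394).

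Protein-altering calls (missense, stop, frameshift, in-frame and essential splice site changes) were fewer in the NN series as well. NN leukemias had 18 to 43 (median 21) and plain leukemias 27 to 179 (median 107). The means were 24.2 ± 7.63 (SD, n = 9) against 104 ± 62 (SD, n = 8) (adjusted p = 0.000987, exact permutation test). With calls of an allele fraction of at least 0.10 only, the difference went from -79.9 to -18.7 calls and did not pass (adjusted p = 0.182, exact permutation test). Over all allele fractions it was -50.2 without M18, M19 and M22 and -24 without M31 as well, and both passed (adjusted p = 0.012 and 0.0291, exact permutation test). The low-fraction private unmarked calls of the plain series held 91 frameshift calls of 884 (10.3%) and 53 in-frame insertions or deletions (6%). Those of the NN series held 5 frameshift calls of 140 (3.57%) and 0 in-frame ones, which allows a share of up to 2.14% on counting alone. Without M18, M19 and M22 the plain shares were 6.18% (frameshift) and 3.27% (in-frame) of 275 calls. Insertions of any length made up 12.1% of these NN calls and 19.1% of the plain ones, but 10.9% of the plain ones without M18, M19 and M22. Essential splice site changes numbered 9 in the NN series (6.43%, against 0.792% in the plain series), and 7 of the 9 were Nsd1 calls of M55 and M59.

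Insertions and deletions were 4.88% to 14.9% of all calls in NN leukemias and 6.44% to 29.1% in plain ones. The means were 9.38 ± 3.39% (SD, n = 9) against 17.6 ± 8.53% (SD, n = 8), a difference that passed (exact permutation p = 0.0165). M22, M18 and M19 had the highest shares, 29.1%, 28.2% and 22.2%, and without them the difference of -2.89 percentage points did not pass (exact permutation p = 0.217).

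The substitution classes of the single-base calls were compared next, each class named by the pyrimidine of its base pair. Among unmarked private calls C>T made up 17% to 50% in NN leukemias (median 30%). In plain leukemias it made up 50.5% to 76.9% (median 69.3%). The groups did not overlap, although M31 at 50.5% lay just above M55 and M58 at 50%. The means were 35.2 ± 12.4% (SD, n = 9) against 67.7 ± 8.18% (SD, n = 8), and C>T was lower in NN by 32.5 percentage points (difference -32.5, adjusted p = 0.000247, exact permutation test with Benjamini-Hochberg adjustment over 6 classes). Its raw p of 4.11e-05 is the smallest that 24310 assignments can give. Of the 6 classes 2 passed (33.3%). The C>T difference was -31.4 percentage points without M18, M19 and M22 and -35.4 without M31 as well. Both passed (adjusted p = 0.00599 and 0.00839, exact permutation test).

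C>A was the other class. It made up 5% to 61.7% of the unmarked private single-base calls in NN leukemias (median 23.5%) and 7.35% to 15.8% in plain ones (median 10.4%). The means were 26.7 ± 16% (SD, n = 9) against 10.6 ± 2.77% (SD, n = 8) (adjusted p = 0.0135, exact permutation test), and 8 of 9 NN leukemias lay above the highest plain value, with M55 at 5% below the lowest. M59 had the highest share, 29 C>A calls. Leaving out any 1 leukemia gave differences of 11.6 to 18.7 percentage points, all past the threshold. The call was lost in thymus only (13.7 points, adjusted p = 0.0974), without M18, M19 and M22 (15 points, adjusted p = 0.156) and without M31 as well (14.8 points, adjusted p = 0.273, exact permutation tests). It was also lost when calls under an allele fraction of 0.10 (19.8 points, adjusted p = 0.0912) or from 0.10 upward (5.82 points, adjusted p = 0.781) were taken alone (exact permutation tests). The shares rest on few calls in the NN series, 10 to 47 single-base private calls per leukemia against 38 to 206 in the plain series. T>C averaged 20 ± 15.8% (SD, n = 9) and 10.6 ± 5.7% (SD, n = 8) and did not pass (adjusted p = 0.267, exact permutation test).

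**Figure D3:**
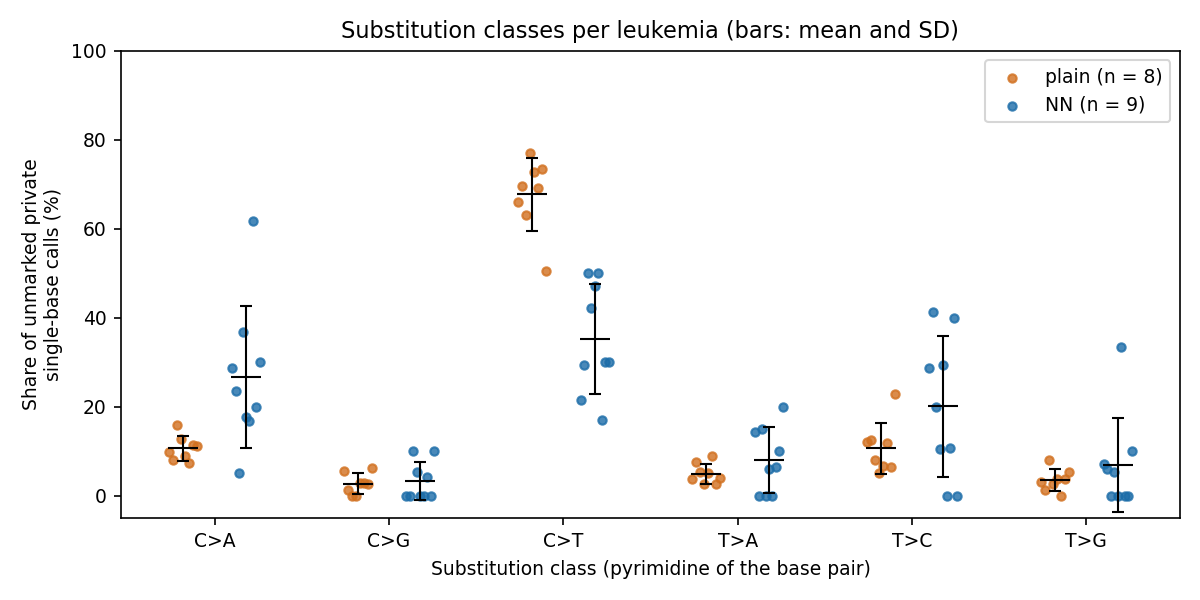
Share of each substitution class in the unmarked private single-base calls of a leukemia (y axis, percent), 1 point per leukemia, plain in orange and NN in blue, with mean and SD as bars. The C>T points of the plain series (50.5% to 76.9%) lie above those of the NN series (17% to 50%), and M59 is the highest C>A point at 61.7%.

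The C>T difference lay in the calls with an allele fraction under 0.10. Pooled over leukemias, 33 of 118 NN calls (28%) and 486 of 684 plain calls (71.1%) in that range were C>T. Per leukemia the shares were 9.76% to 80% in NN and 65.4% to 87% in plain leukemias, and only M58, with 4 C>T calls of 5, lay within the plain range. The difference in this range was -37.4 percentage points (adjusted p = 0.00444, exact permutation test). This limit was chosen after seeing the data. With an allele fraction of at least 0.10 the pooled shares were 21 of 48 (43.8%) and 97 of 208 (46.6%), and the difference per leukemia was -5.3 percentage points (adjusted p = 0.781, exact permutation test). For all calls and for unmarked calls the C>T difference changed sign at this limit, from -17.9 to 2.38 and from -18.5 to 1.4 percentage points, and neither of the later values passed.

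Over all calls, C>T averaged 43.9 ± 7.53% (SD, n = 9) in the NN and 61.8 ± 8.19% (SD, n = 8) in the plain series (adjusted p = 0.00543, exact permutation test). C>A averaged 17.4 ± 8.68% and 10.2 ± 2.49% (SD, n = 9 and 8), which passed (adjusted p = 0.0196, exact permutation test). This call was lost without M19, without M23, without M18, M19 and M22 together (6.81 points, adjusted p = 0.184) and without chromosomes 1, 7 and 19 (6.14 points, adjusted p = 0.0621, exact permutation tests). Of the 6 classes, 2 passed in all calls (33.3%) and 3 in unmarked calls (50%), where T>C joined them with 19.9 ± 3.79% in NN and 13.2 ± 4.16% in plain leukemias (SD, n = 9 and 8), by an adjusted p of 0.01 (exact permutation test).

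The median allele fraction of each leukemia was compared as well. Over unmarked calls it ran from 0.062 (M59) to 0.382 (M61) in NN leukemias and from 0.031 (M18) to 0.267 (M31) in plain ones. The means were 0.254 ± 0.0935 (SD, n = 9) against 0.0917 ± 0.0846 (SD, n = 8) (adjusted p = 0.0177, exact permutation test with Benjamini-Hochberg adjustment over 5 sets of calls), and this was the 1 of the 5 sets that passed (20%). With M18, M19 and M22 left out, the difference of 0.126 did not pass (adjusted p = 0.18, exact permutation test). Within shared calls the medians averaged 0.392 ± 0.0729 and 0.341 ± 0.135 (SD, n = 9 and 8), by an adjusted p of 0.563 (exact permutation test). Within private calls they averaged 0.0687 ± 0.0456 and 0.0779 ± 0.0915 (SD, n = 9 and 8), by an adjusted p of 0.853 (exact permutation test). Neither passed.

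Sites listed in several leukemias were then compared between the series. Of 109 sites listed in 2 to 16 leukemias, 6 differed (5.5%), 4 listed more often in NN (3.67%) and 2 more often in plain leukemias (1.83%), and 16 had a raw p under 0.05 (14.7%). The test was Fisher's exact test, two-sided, with Benjamini-Hochberg adjustment over the 109 sites. The table lists calls only, so a leukemia without a listing is not shown to lack the variant. The count is fragile: it was 0 without M21, 1 without M61, 3 without M18, M22, M23, M24, M31, M55, M56, M57, M58 or M60, and 0 without M18, M19 and M22 together. With tissue as a stratum 1 site passed, and among thymus leukemias 0.

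Gcgr, the glucagon receptor gene, carried V148M (chromosome 11, position 120536507 of mm10, a missense change) in 7 of 8 plain leukemias, all but M31, and in 0 of 9 NN leukemias. Its allele fractions were 0.541, 0.5, 0.514, 0.596, 0.521, 0.358 and 0.494 in M18 to M24. These values lay near 0.5 in all but M23 (adjusted p = 0.0149, Fisher exact test). A splice acceptor change in Abca12, a lipid transporter gene of the skin barrier (chromosome 1, position 71267608), had listings in 6 plain and 0 NN leukemias, at 0.273 in M31 and 0.412 to 0.579 in M18, M21, M22, M23 and M24 (adjusted p = 0.0411, Fisher exact test).

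In the other direction, Ankrd13a A313T (chromosome 5, position 114797906, missense in an ankyrin repeat gene) was listed in 8 of 9 NN leukemias, all but M61, and in 0 of 8 plain ones. Its allele fractions ran from 0.296 in M57 to 0.643 in M56 with a median of 0.478 (adjusted p = 0.0149, Fisher exact test). Ankrd33b P61P (chromosome 15, position 31367210, synonymous) had listings in 7 NN and 0 plain leukemias, at 0.333 to 0.5 in 6 of them and at 1 in M60, on a median depth of only 13 reads (adjusted p = 0.0411, Fisher exact test). A site between Mup17 and Gm2083 (chromosome 4, position 61610717), in a cluster of near-identical major urinary protein genes where reads can be placed on the wrong copy, was listed in 7 NN and 0 plain leukemias. There the fractions were 0.024 to 0.053 (adjusted p = 0.0411, Fisher exact test).

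**Figure D4:**
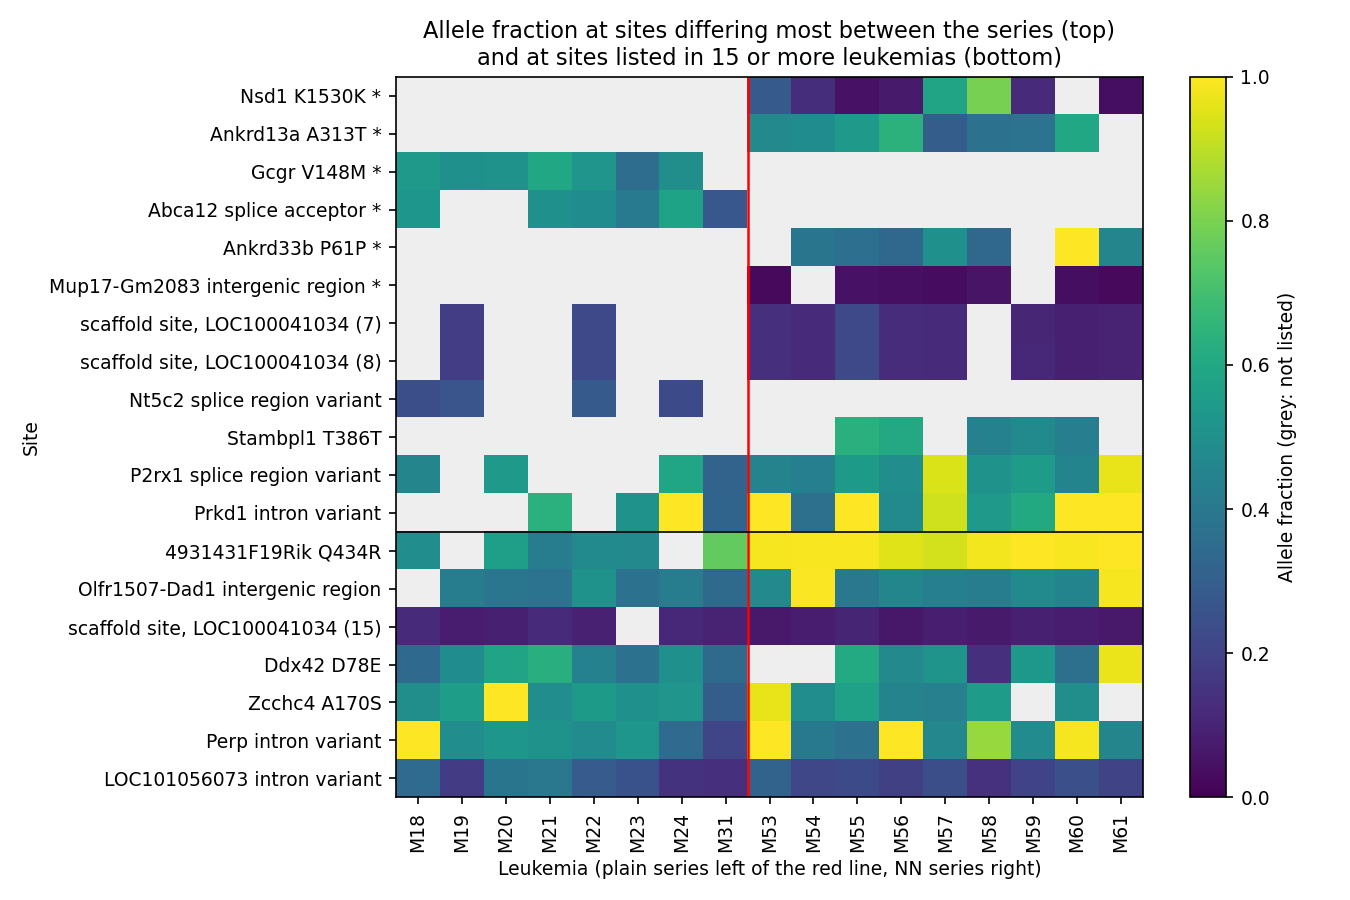
Allele fraction (colour, 0 to 1) of a site (rows) in each leukemia (columns), plain left and NN right of the red line, grey where the site was not listed. The upper 12 rows are the sites with the smallest p between the series, with the 6 past the threshold starred, and the lower 7 rows are sites listed in 15 or more leukemias, where 4931431F19Rik Q434R is at 0.931 to 1 in all NN leukemias and at 0.42 to 0.76 in 6 plain leukemias.

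The remaining site past the threshold was Nsd1 K1530K. Nsd1 encodes a methyltransferase that acts on lysine 36 of histone H3, and its human counterpart is itself a fusion partner of NUP98 in leukemia. The synonymous change (chromosome 13, position 55277621) was database-marked and listed in 8 NN leukemias, all but M60, and in 0 plain ones (adjusted p = 0.0149, Fisher exact test). Its allele fraction varied more widely than those at Ankrd13a and Gcgr. It was 0.794 in M58, 0.585 in M57, 0.284 in M53 and 0.131 in M54. In M59, M56, M55 and M61 it was 0.122, 0.071, 0.049 and 0.039. Insertions at Nsd1 exon ends, annotated as splice donor changes, were listed in 5 of these 8 leukemias. Their fractions were 0.608 in M58, 0.207 in M53, 0.152 and 0.174 in M54, 0.051 to 0.065 in M59 and 0.034 to 0.06 in M55, so the leukemias with the higher fraction at K1530K also had the higher insertion fractions. M57, the second highest at K1530K, had no such insertion listed but had a splice region change at 0.315.

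The inserted bases at position 55307042 on chromosome 13 are shown because the same insertion was listed in more than 1 NN leukemia. They are written as deposited, on the reference strand, with the 12 bases common to both in capitals.
Nsd1 insertion of 59 bases (M53, M58): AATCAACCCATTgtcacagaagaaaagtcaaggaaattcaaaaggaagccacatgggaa
Nsd1 insertion of 12 bases (M54, M55): AATCAACCCATT
The 12-base insertion is the start of the longer one. The longer insertion was carried by 77 of 144 reads in M58 (53.5%, 95% Clopper-Pearson interval 45% to 61.8%) and 21 of 122 in M53 (17.2%, interval 11% to 25.1%). The 12-base insertion was carried by 12 of 98 reads in M54 (12.2%, interval 6.49% to 20.4%) and 5 of 95 in M55 (5.26%, interval 1.73% to 11.9%). These intervals reflect counting error alone and take no account of PCR copies of a molecule that may be among the reads.

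The 6 next sites by raw p did not pass. Both scaffold sites beside LOC100041034, at adjacent positions 83251 and 83252, were listed in 8 NN and 2 plain leukemias (adjusted p = 0.207, Fisher exact test). Nt5c2, a cytosolic nucleotidase gene, had a splice region change in 4 plain leukemias (M18, M19, M22 and M24) at 0.224 to 0.284. Stambpl1 T386T was listed in 5 NN leukemias at 0.426 to 0.634. P2rx1, an ATP-gated ion channel gene, and Prkd1, a protein kinase gene, had changes listed in all 9 NN and 4 plain leukemias each. For these 4 sites the adjusted p was 0.267 (Fisher exact test).

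Other sites were common to both series. Intronic sites in Perp, a target gene of p53, and in LOC101056073 were listed in all 17 leukemias. Listed in 15 or 16 were Ddx42 D78E, in an RNA helicase gene, and Zcchc4 A170S, in an RNA methyltransferase gene, both in 8 plain and 7 NN leukemias. A site between Olfr1507 and Dad1 and the scaffold site in LOC100041034 were each listed in 9 NN and 7 plain leukemias.

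At 27 sites listed in at least 4 leukemias of each series, the allele fractions themselves were compared, and 1 passed (3.7%), with 5 at a raw p under 0.05 (18.5%). 4931431F19Rik Q434R (chromosome 7, position 104128315, missense) had allele fractions of 0.931 to 1 in the 9 NN leukemias (median 0.989). In the plain series it had 0.492 in M18, 0.564 in M20, 0.42 in M21, 0.479 in M22, 0.471 in M23 and 0.76 in M31. The groups did not overlap. The means were 0.98 ± 0.0236 (SD, n = 9) against 0.531 ± 0.121 (SD, n = 6) (adjusted p = 0.00539, exact permutation test). Daglb, a lipase gene of endocannabinoid synthesis, had an intronic site at 0.711 ± 0.22 (SD, n = 9) in NN and 0.389 ± 0.0734 (SD, n = 5) in plain leukemias, which did not pass (adjusted p = 0.0899, exact permutation test). Fractions from 0.9 upward were seen at 1 to 8 unmarked shared sites per NN leukemia (mean 5.22 ± 2.39, SD, n = 9) and at 0 to 6 per plain leukemia (mean 1.5 ± 2.33, SD, n = 8), where M20 had 6, M18 4, M24 2 and the others 0. This count was not tested.

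Pairs of leukemias within the NN series had more sites in common on average than plain or mixed pairs, with overlapping ranges. NN pairs by themselves were not tested against the others. Pairs of NN leukemias had 17 to 33 unmarked sites in common, with a mean of 23.9 ± 3.7 (SD over 36 pairs). Pairs of plain leukemias had 11 to 28, with a mean of 17.9 ± 4.81 (SD over 28 pairs), and pairs with 1 leukemia of each had 6 to 23, with a mean of 16.7 ± 3.6 (SD over 72 pairs). Same-series pairs exceeded mixed pairs by 4.59 sites (exact permutation p = 4.11e-05 over assignments of leukemias, the smallest that 24310 can give). The pairs share leukemias and are not independent, so their SD is no error of the mean. Of the unmarked sites, 49 were listed in both series, which is 18.1% of 271 NN sites and 3.99% of 1229 plain sites.

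**Figure D5:**
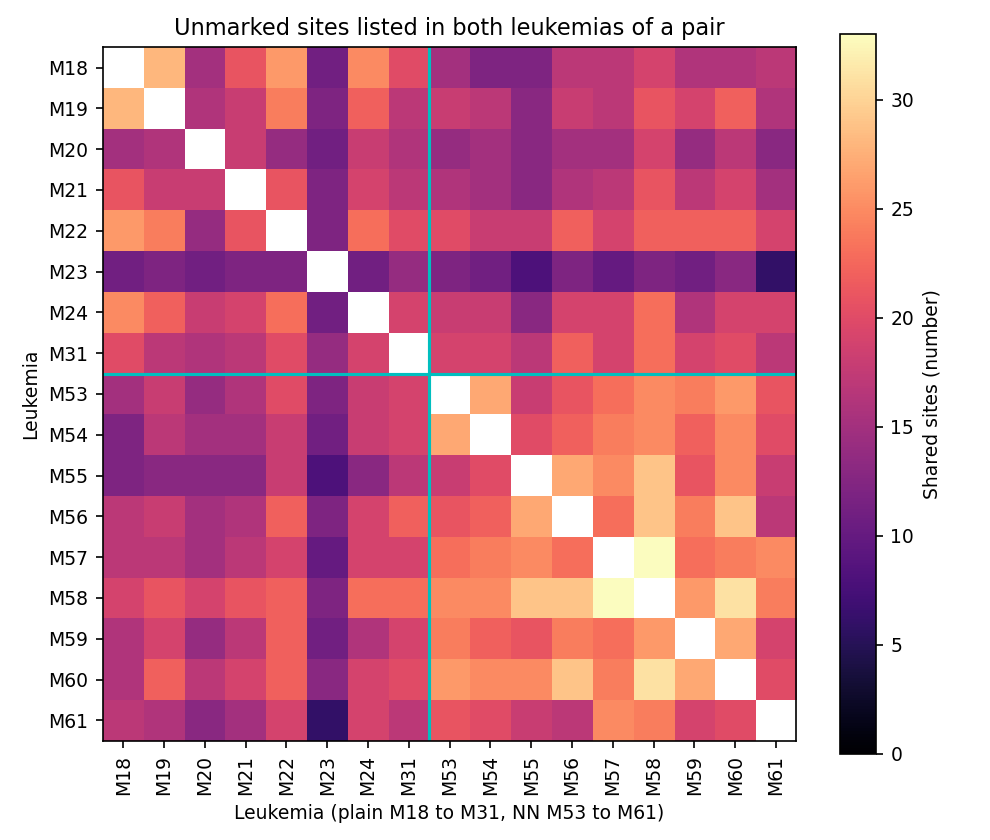
Number of unmarked sites listed in both leukemias of a pair (colour), for all pairs of the 17 leukemias, with lines between the plain and NN series. The NN block at the lower right holds 17 to 33 sites per pair, the plain block 11 to 28 and the mixed blocks 6 to 23, and M23 has the darkest row.

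Sites listed in exactly 2 leukemias differed in kind. Of 28 such sites with both leukemias plain, 17 were insertions or deletions and 25 had a median allele fraction under 0.10. Of 13 with both leukemias NN, 2 were insertions or deletions and 5 had such a fraction, and 2 sites had 1 leukemia of each series. M18, M19 or M22 was among the leukemias at 27 of the 28 sites with both leukemias plain, and 9 of these sites were listed in M18 and M19. The insertions among them numbered 16 in 14 genes, were 2 to 16 bases long and were carried by 3 to 11 reads per leukemia. Examples of the inserted bases are given because separate leukemias held the same insertion at low fractions. The bases are in capitals throughout, as deposited on the reference strand.
Samd5 (chromosome 10, position 9674618, M18 and M19): TGGTGAGCTACCCTAA
Pira6 (chromosome 7, position 4282083, M22 and M24): GAGCTACTCACAT
Lingo1 (chromosome 9, position 56619771, M19 and M22): GGAGAGGCCAA
Ncaph (chromosome 2, position 127125681, M18 and M22): CCAAGATCTAT
The Samd5 insertion was carried by 8 of 191 reads in M18 and 11 of 155 in M19, and the Ncaph insertion by 4 of 93 reads in both M18 and M22. All 4 examples are annotated as frameshifts. They were taken from sites with both leukemias plain, so the lack of an NN listing follows from that choice.

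Genes with protein-altering calls were compared last. Such calls fell in 116 genes in the NN series and 625 in the plain series, with 21 genes in both (18.1% and 3.36% of each). Of 73 genes with such calls in 2 to 16 leukemias, 2 differed (2.74%), Ankrd13a and Gcgr (both adjusted p = 0.015, Fisher exact test), and each rested on the single site described above. There were 6 with a raw p under 0.05 (8.22%). The count of 2 fell to 0 without M53, M54, M55 or M59, to 1 without M61, and to 0 without M18, M19 and M22. Nsd1 was the only gene with 2 or more distinct sites and a raw p under 0.05, with splice donor insertions in 5 NN and 0 plain leukemias (raw p = 0.0294, adjusted p = 0.301, Fisher exact test). Abca12 (0 NN, 6 plain), Syne4, a nuclear envelope linker gene (1 NN, 5 plain), and Zfp987, a zinc finger gene (6 NN, 1 plain), completed the 6, each on 1 site. The next were Uhrf1bp1 in 4 NN leukemias and Ttn and Ryr2, both large muscle genes, in 3 plain leukemias each (adjusted p = 0.301, Fisher exact test).

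The 14 lists of leukemia genes, 166 genes in all, were hit in 7 NN and 6 plain leukemias, and 5 lists had a protein-altering call. Over both series 14 of the 166 genes were hit (8.43%), beside 720 of 21896 protein-coding genes of the RefSeq table (3.29%), of which 116 were hit in NN (0.53%) and 625 in plain leukemias (2.85%). These shares take no account of coding length, and the lists were chosen with earlier results known. Among RAS and receptor tyrosine kinase genes, 4 of 21 were hit (19%), in 2 NN and 0 plain leukemias, and all 4 in M59. M59 carried Cbl R557K in 53 of 125 reads (42.4%, interval 33.6% to 51.6%), in a ubiquitin ligase that turns over receptor kinases. It also carried Gab1 D685G in 44 of 125 reads (35.2%), in a docking protein of receptor kinases, a Nck2 frameshift in 9 of 46 reads and Ptpn11 A72V, in the SHP2 phosphatase gene, in 4 of 77 reads. M61 carried a Cbl deletion of 29 bases across a splice acceptor in 9 of 79 reads (11.4%, interval 5.34% to 20.5%).

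Among histone methyltransferase genes, 5 NN and 5 plain leukemias had a protein-altering call. No gene of the list was hit in both series, and of all 720 genes with such a call 21 were (18.1% of those hit in NN and 3.36% of those hit in plain leukemias). The NN calls were all in Nsd1, 12 in number, and all were splice donor insertions. Several lay in the same leukemia at similar fractions, such as 0.051 to 0.065 in M59. Whether they are separate events was not tested. The plain calls were in the lysine 4 methyltransferase genes Kmt2a (T1311I in M31, 6 of 22 reads), Kmt2b (R1308C in M21, 5 of 30 reads, and R2686H in M22, 6 of 111), Kmt2c (M23, 3 of 111) and Kmt2d (A5487T in M19, 5 of 263). Of these only the M31 and M21 calls had an allele fraction of at least 0.10. M19 carried Brpf1 E827K, in a subunit of a histone acetyltransferase complex, in 38 of 80 reads (47.5%) and Ncor1 P1203S, in a corepressor gene, in 4 of 99. M18 carried frameshifts in the cytosine dioxygenase genes Tet2 (5 of 164 reads) and Tet3 (5 of 158 reads, 2 calls 1 base apart). The nucleoporin list held 1 call, the marked Nup210 L425F in M57 in 5 of 82 reads. The difference between the series was not tested for any list.

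The private unmarked protein-altering call of highest allele fraction was named for 16 leukemias, at a depth of at least 20 reads. In the NN series it was Tigit V132E in M61 (23 of 43 reads, 53.5%), Gm5168 E49K in M54 (0.488), Smg6 I1215V in M55 (0.423), Cdh3 P538L in M58 (0.419), Cbl R557K in M59 (0.407), Rsc1a1 V474A in M53 (0.338), Olfr1310 L301P in M60 (0.304), Rsad2 S152P in M56 (0.088) and Celf6 E373K in M57 (0.053). Tigit encodes an inhibitory receptor of T and NK cells, Smg6 an endonuclease of nonsense-mediated decay, and Cdh3 P-cadherin. In the plain series it was Pxdn R958C in M20 (0.667), Olfr1153 I45T in M22 (0.488), Hmcn1 I1484V in M31 (0.44), Zswim4 D951G in M21 (0.357), Tfb2m S166R in M24 (0.286), Hook1 R272H in M18 (0.213) and Nicn1 S89G in M23 (0.143). Tfb2m encodes a mitochondrial transcription factor. The values of the series overlapped.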

How the data were processed

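The deposited table holds 2653 mutect2 calls at 2101 sites. Per the file headers, the authors compared each leukemia with a normal, and all rows had the filter value PASS and fell in bait regions. Tools in the submitters' processing notes are BWA 0.7.17, GATK and bcl2fastq 2.17.1.14, and the builds mm10 and GRCm38. The GATK version is not given in the sources used here. Read depths and allele counts were deposited as whole-number counts without normalization. Allele fractions are fractions that the authors' caller estimated. The orientation fraction and the tumor log odds score were deposited too and are not reported here. The 22 other per-sample columns were not used. Rows were grouped by sample name, and 3 gene symbols stored as dates were restored through RefSeq accessions.

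Comparisons used exact permutation and Fisher tests (Python 3.11.15, scipy 1.17.1, numpy 2.4.6, pandas 2.3.3) with a threshold of adjusted p under 0.05, and were checked on simulated data. Depth used only sites on assembled chromosomes, a narrowing made after the data were seen. The members, gene lists and tests were chosen with earlier results of these data known. The alternatives were a depth of at least 20 reads, an allele fraction of at least 0.10, no marked calls, thymus only, tissue strata, sites in 3 to 14 leukemias, alternative reads over depth, medians, and each leukemia left out. Those without M18, M19 and M22 (and M31), without chromosomes 1, 7 and 19, and with allele fractions under 0.10 were chosen after the data were seen, as was the share of RefSeq protein-coding genes set beside the lists.

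Named sites and genes followed a rule: sites past the threshold and the next by raw p up to 12, sites in 15 or more leukemias, 10 genes by raw p, list genes with a protein-altering call, and the leading private call per leukemia. Some items the rule names are not reported here. Daglb, the sequences' genes and library values were named in addition, after their values were seen. Precision per call is limited by depth, with median depths of 38 to 130 reads per leukemia at widely listed sites.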

Additional observations from a re-analysis of the deposited data

Results flagged for a closer look

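Each value below lay far from the others of its series by Dixon's test at the 95% level. It was run on 66 groups of values, and chance alone flags about 1 in 20 groups; 17 were flagged, and many of these come from the same calls. In the plain series M31 had 885 calls (next highest 280), 607 marked calls (next highest 7), 851 private calls and 763 private calls from an allele fraction of 0.10 upward. Its private calls had a median allele fraction of 0.298. C>T made up 43.2% of its single-base calls, the lowest plain share, and T>C made up 35% of all, 22.2% of unmarked and 22.8% of unmarked private ones. In the NN series M59 had 94 unmarked calls (next highest 62) and 43 protein-altering calls (next highest 27). C>A made up 39% of its single-base calls and 40% of the unmarked ones. Its median allele fraction was 0.062 over unmarked calls and 0.214 over shared calls, the lowest of the NN series. M57 had 22 marked calls (next highest 9). In M58 T>G made up 33.3% of the unmarked private single-base calls. The contrast between the series was also compared between thymus and bone marrow in 16 tests, of which 0 had an exact permutation p under 0.05.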

How the results depend on the processing

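Differences are NN minus plain. At an allele fraction of at least 0.10 the difference was -92.8 for all calls, -21.1 for unmarked and -18.7 for protein-altering calls, none past the threshold, and 5.42 for shared calls, which passed. There C>T differed by -5.3 percentage points among unmarked private calls, and the signs turned for C>T over all (2.38) and unmarked calls (1.4) and for T>C over unmarked calls (-3.11). The number of classes past the threshold was 0 in all, unmarked and unmarked private calls, and the median allele fraction of unmarked calls differed by 0.0359. The alternative itself removes the low-fraction calls. Shared calls also passed without M18, M19 and M22 (9.87) and without M31 as well (10.7). Private calls from 0.10 upward lost their call at a depth of at least 20 reads (-92.3), in thymus only (-130), as a difference of medians (-1.5) and without M18, M19, M22 and M31 (-6.14). Insertions and deletions lost it in thymus only (-8.58), without M18, M19 and M22 (-2.89) and without M31 as well (-4.35). The median allele fraction over all calls passed without marked calls (0.162) and as alternative reads over depth (0.132). That of unmarked calls lost its call in thymus only (0.181), without M18, M19 and M22 (0.126) and without M31 as well (0.161). C>A over unmarked calls lost its call without M18, M19 and M22 (7.72, adjusted p = 0.11, exact permutation test), with M31 left out too (7.63) and from 0.10 upward (1.69), and C>A over all calls without M18, M19, M22 and M31 (6.16) and from 0.10 upward (1.78). Without M18, M19 and M22, 1 class, C>T, passed in each set of calls, and 1 passed among unmarked private calls without M31 as well, in thymus only and under an allele fraction of 0.10. Sites past the threshold numbered 0 in thymus only and without M18, M19 and M22, with or without M31, and 1 with tissue as a stratum. Genes past it numbered 1 at a depth of at least 20 reads and without M18, M19, M22 and M31, and 0 in thymus only, with tissue as a stratum and without M18, M19 and M22. Without M18, M19, M22 and M31, 0 sites passed for allele fraction. The site that passed in the main test, 4931431F19Rik Q434R, could not be tested there. Of the plain leukemias with a listing only M20, M21 and M23 were left, fewer than the 4 required. Where no other value is given here, the cause was not tested.

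With each leukemia left out in turn, private calls from 0.10 upward differed by -112 to -4.32 and the median allele fraction of all calls by 0.115 to 0.162. Classes past the threshold in all calls numbered 1 to 3, sites 0 to 6, genes 0 to 3, and genes with 2 or more sites 24 to 40 (24 without M19). The C>T difference among unmarked private calls ran from -34.9 to -30.2 and kept its call each time. No paired analysis was possible because the series share no mouse numbers. Depth limits calls of few reads: the table gives no depth where a site was not listed, and bone marrow alone, with 4 and 2 leukemias, allows too few assignments for a test.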

Other observations

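C>A calls were written unevenly on the reference strand in both series. Among unmarked private calls with an allele fraction under 0.10, 41 NN calls were C to A as written and 6 were G to T, and 49 plain calls were C to A and 12 G to T. C>T calls in the same range were 13 and 20 (C to T and G to A as written) in the NN series and 259 and 227 in the plain series. In M59, 28 of 29 unmarked private C>A calls were C to A as written. They had allele fractions of 0.00864 to 0.077 (median 0.027), and 18 of them altered a protein. In M31 the numbers were 13 and 10. Of the alternative reads of the 41 NN calls, 46.4% were in the orientation where read 1 lies forward, and of those of the 49 plain calls 58.2%. This was noticed in the data and not tested.

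The Nsd1 calls also differed in number among NN leukemias, with 8 in M55, 8 in M59, 4 in M54, 2 in each of M53, M57 and M58, and 1 in each of M56 and M61. Of these, 7 were insertions in M55 and in M59, 3 in M54 and 1 in M53 and in M58.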
